A study of Mus musculus with 30 samples.

Results

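The receptor Rank, listed as Tnfrsf11a, was followed here with the adaptors Traf2, Traf3 and Traf6, the kinase Map3k14 and the NF-kB subunits Nfkb1, Nfkb2, Rel, Rela and Relb in sorted mouse mammary epithelial cells. These 10 genes were chosen by name and not by a cut on their values, though earlier results of these data were known. All 10 were present among the 11137 genes of the table of 30 libraries, and all 10 passed the filter on low values in each of the 11 comparisons below. Rank belongs to the TNF receptor superfamily and has no enzyme activity of its own. When its ligand Rankl binds, Traf adaptors are recruited to its tail. Traf6 feeds the canonical arm, in which IkB proteins are degraded and dimers of Rela or Rel with the p50 product of Nfkb1 enter the nucleus. Traf2 and Traf3 keep Map3k14, also called NIK, at a low protein level, and its release starts the noncanonical arm, in which Nfkb2 is processed to p52 and pairs with Relb. In the mammary gland Rankl is made by hormone-sensing luminal cells, and Rank acts in progesterone-driven expansion and alveolar differentiation. Most of these steps act on proteins, whereas RNA was measured here.

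All mice carried K8rtTA, TetO-Cre and the Rosa mT/mG reporter, so that doxycycline induced Cre in cells with an active Krt8 promoter, which are luminal. K8iΔRank mice also carried Rank fl/fl, and K8imTmG mice had intact Rank and served as controls. The labels give doxycycline at 1 mg per ml of drinking water from week 3 to week 8 of age, whereas the methods give a later start. The mice were females of mixed background. The study describes virgin and parous glands as age matched, and the ages at collection are not given in the sources used here. Parous glands had gone through pregnancy and involution, and lactation failure is described for K8iΔRank mice, so that the parous groups do not share 1 history of lactation. Luminal cells were sorted as CD24 high and CD49f low and for GFP, which marks recombined cells, and basal cells as CD24 low and CD49f high, with antibodies to CD45 and CD31 to remove lymphocytes and endothelial cells. Cre was not directed to basal cells, which keep Rank in both genotypes. Luminal libraries came from 3 virgin K8imTmG, 3 virgin K8iΔRank, 5 parous K8imTmG and 4 parous K8iΔRank mice. Basal libraries came from 3 virgin K8imTmG, 4 virgin K8iΔRank, 4 parous K8imTmG and 4 parous K8iΔRank mice. Of the 17 mice, 13 gave both lineages. In bulk samples such as these, fewer cells of a type and less RNA per cell cannot be told apart.

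Values are normalized counts, that is reads with distinct molecular identifiers divided by a size factor for each library. The recovered depth of a library lay between 340445 and 3130419 reads. A single read counted for 0.381 to 5.43 normalized counts, depending on the library, and the 10 genes had 1 to 505 reads each. The lineages matched their labels, with Krt5 at 2.46 to 17.7 in luminal and 811 to 1463 in basal libraries and Elf5 at 56.7 to 345 in luminal and at most 9.83 in basal libraries. Libraries also stood apart in a way that neither lineage nor genotype gives. The lectin gene Clec2d had 0.641 to 8.68 normalized counts in 16 libraries, called Clec2d-low below, and 65.6 to 199 in the other 14, called Clec2d-high. All virgin K8imTmG luminal, parous K8iΔRank luminal and virgin K8iΔRank basal libraries were Clec2d-low. All virgin K8iΔRank luminal, virgin K8imTmG basal and parous K8imTmG basal libraries were Clec2d-high. The mixed groups were parous K8imTmG luminal cells, with 3 low and 2 high, and parous K8iΔRank basal cells, with 2 low and 2 high. In virgin mice the genotype and this division therefore cannot be told apart. Depth moved with it, from 1200781 to 3130419 reads in Clec2d-low and from 340445 to 2677273 in Clec2d-high libraries.

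The sequences that bear on Rank as a check of the genotype are the primers of the study's own qPCR assay, which is named for exons 2 to 3. Both match the canonical Tnfrsf11a transcript of GENCODE vM39 once, as written or as the reverse complement, on chromosome 1 of GRCm39. The plus strand is that of the gene and not of each primer. They are shown 5′ to 3′ in lower case because no part of them is singled out.
Forward primer, in exon 2 at chr1:105735902-105735920: agaggcattatgagcatct
Reverse primer, in exon 3 at chr1:105737153-105737172: cagactttatgcagcaagca
Exon 3 ends 6170 bases before the 3′ end of this transcript of 6490 bases, which has 10 exons, and exon 10 alone holds 4925 bases. The libraries were made by oligo-dT priming and read the 3′ end of transcripts. Which exons Cre removes is not given in the sources used here. Counts of Tnfrsf11a therefore carry no information on exons 2 and 3 and were not used to check a label, and the genotypes below are those of the labels.

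Rank was higher in basal than in luminal cells. Tnfrsf11a had a lowest, median and highest normalized count of 9.57, 23.8 and 64.9 in the 15 luminal libraries and of 33.1, 68.7 and 81.1 in the 15 basal libraries. The ranges overlapped, and the 3 Clec2d-low parous K8imTmG libraries were the highest of the luminal ones. The difference, averaged over stage and genotype, was -1.39 on the log2(normalized count + 1) scale (luminal minus basal, SE 0.19, limma adjusted p = 2.52e-07). It stayed between -1.47 and -1.31 whichever mouse was left out, and was -1.38 (SE 0.17, limma adjusted p = 5.01e-06) with the mouse as a block. Within mice, basal cells held more Tnfrsf11a in 12 of 13 mice, the exception being the parous K8imTmG mouse 534 with 64.9 in luminal and 50.8 in basal cells. In 3 of the 4 conditions every basal library was above every luminal one.

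**Figure D1:**
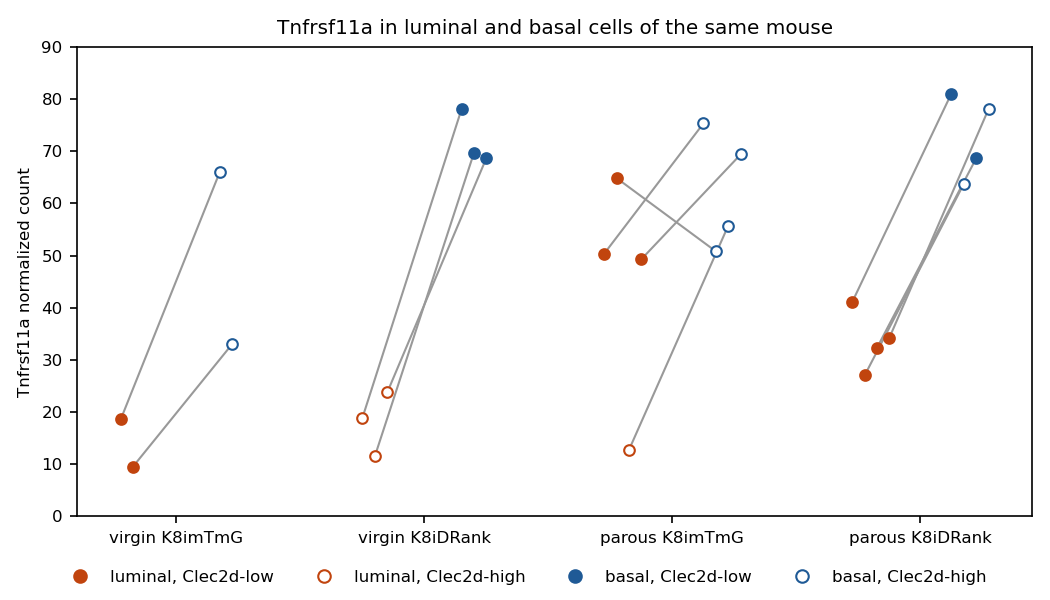
Normalized count of Tnfrsf11a (linear axis) in luminal and basal cells of the 13 mice that gave both, by stage and genotype. Each line joins the libraries of 1 mouse, filled points are Clec2d-low and open points Clec2d-high libraries. The basal point is the higher one in 12 of the 13 mice.

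Ordered by mean, Tnfrsf11a was 14.1 ± 4.51 (SD, n = 3) in virgin K8imTmG luminal cells, 18.1 ± 6.16 (SD, n = 3) in virgin K8iΔRank luminal cells, 33.7 ± 5.82 (SD, n = 4) in parous K8iΔRank luminal cells and 39.5 ± 22.1 (SD, n = 5) in parous K8imTmG luminal cells. The basal groups followed with 51.2 ± 16.7 (SD, n = 3) in virgin K8imTmG, 62.8 ± 11.5 (SD, n = 4) in parous K8imTmG, 65.4 ± 14.2 (SD, n = 4) in virgin K8iΔRank and 72.9 ± 8.07 (SD, n = 4) in parous K8iΔRank cells. Among neighbours in this order, the gap between means was larger than the larger SD of the pair only between virgin and parous K8iΔRank luminal cells, at 15.6 against 6.16. All 4 luminal groups thus lay below all 4 basal groups by their means, with the virgin groups of both genotypes at the low end.

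Of the 10 genes, 4 passed an adjusted p below 0.05 between lineages, where 55.7% of all 11133 genes tested did. Rela and Traf6 were higher in luminal cells, as 28.7% of genes were, and Tnfrsf11a and Relb lower, as 27% were. With edgeR 7 of the 10 passed, against 55.9% of all genes. The median difference of the 10 genes was 0.088 on the log2 scale, against 0.035 for all genes tested. No member separated the lineages without overlap, which 9.57% of the genes tested did. The members were thus called no more often than genes at large in limma, and the largest difference among them was that of Tnfrsf11a.

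Among the adaptors, Traf6, the E3 ligase that activates the TAK1 kinase, had 22.1, 35.2 and 49.99 as its lowest, median and highest normalized count in luminal and 15.9, 24.8 and 41.7 in basal libraries. The log2 difference was 0.39 (SE 0.13, limma adjusted p = 0.0151), which did not pass with the mouse as a block (0.30, limma adjusted p = 0.103). The basal median lay above the lowest luminal value, and the highest basal library was that of virgin K8imTmG mouse 531. Within conditions the mean log2 difference of Traf6 was -0.10 and 0.10 in virgin and 0.85 and 0.71 in parous K8imTmG and K8iΔRank cells. Traf2, which carries the cIAP ligases into the complex, had 3.79, 18.9 and 54.5 in luminal and 3.99, 12.6 and 22.6 in basal libraries. The difference of 0.49 (SE 0.21) did not pass in limma (adjusted p = 0.0504) but did with the mouse as a block (0.65, limma adjusted p = 0.0165) and with edgeR (adjusted p = 0.0423), and it rested on 2 to 87 reads per library. In K8imTmG mice of both stages every luminal library was above every basal one for Traf2, and in virgin K8iΔRank mice the ranges overlapped with a mean log2 difference of -0.89. Traf3, which tethers Map3k14 to these ligases, had 58.8, 82.2 and 104.0 in luminal and 50.3, 92.4 and 147 in basal libraries. Its difference was -0.26 (SE 0.13, limma adjusted p = 0.0847), with basal cells higher in 11 of 13 mice. It passed with edgeR (-0.32, adjusted p = 0.0330) and with the Clec2d side as a term (-0.35, limma adjusted p = 0.0331). Map3k14 gave no lineage difference beyond its spread, at -0.01 (SE 0.26, limma adjusted p = 0.968), with 3.96 to 28.8 normalized counts in luminal and 2.67 to 39.0 in basal libraries.

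Among the subunits, Rela, which carries a transactivation domain and forms the common canonical dimer with p50, had 51.9, 135 and 207 as its lowest, median and highest normalized count in luminal and 27.2, 88.5 and 143 in basal libraries. The log2 difference was 0.49 (SE 0.16, limma adjusted p = 0.0109). In the 6 K8imTmG mice with both lineages luminal cells held more Rela, and in the 3 virgin K8iΔRank mice basal cells did, which is also how Clec2d divided the libraries of these virgin mice. With the Clec2d side as a term the difference was 0.25 (SE 0.15, limma adjusted p = 0.163). Relb, the partner of p52, had 24.0, 41.0 and 89.5 in luminal and 31.2, 49.3 and 288 in basal libraries. Its difference was -0.56 (SE 0.20, limma adjusted p = 0.0166), and -0.48 (limma adjusted p = 0.0529) without mouse 821. Within conditions the mean log2 difference of Relb was -1.48 and -0.82 in virgin and 0.28 and -0.23 in parous K8imTmG and K8iΔRank cells. The value of 288 came from the virgin K8imTmG basal library of mouse 568, the shallowest of all, with 53 reads of Relb; without it the difference was -0.36 (SE 0.15, limma adjusted p = 0.0396). Nfkb1, the p105 precursor of p50, gave -0.32 (SE 0.14, limma adjusted p = 0.0546), Nfkb2 gave 0.19 (SE 0.16, limma adjusted p = 0.331) and Rel gave 0.25 (SE 0.21, limma adjusted p = 0.344). These 3 subunits did not pass in limma. Nfkb1 passed with edgeR (adjusted p = 0.0246) and in 7 of the 17 fits that left out 1 mouse.

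**Figure D2:**
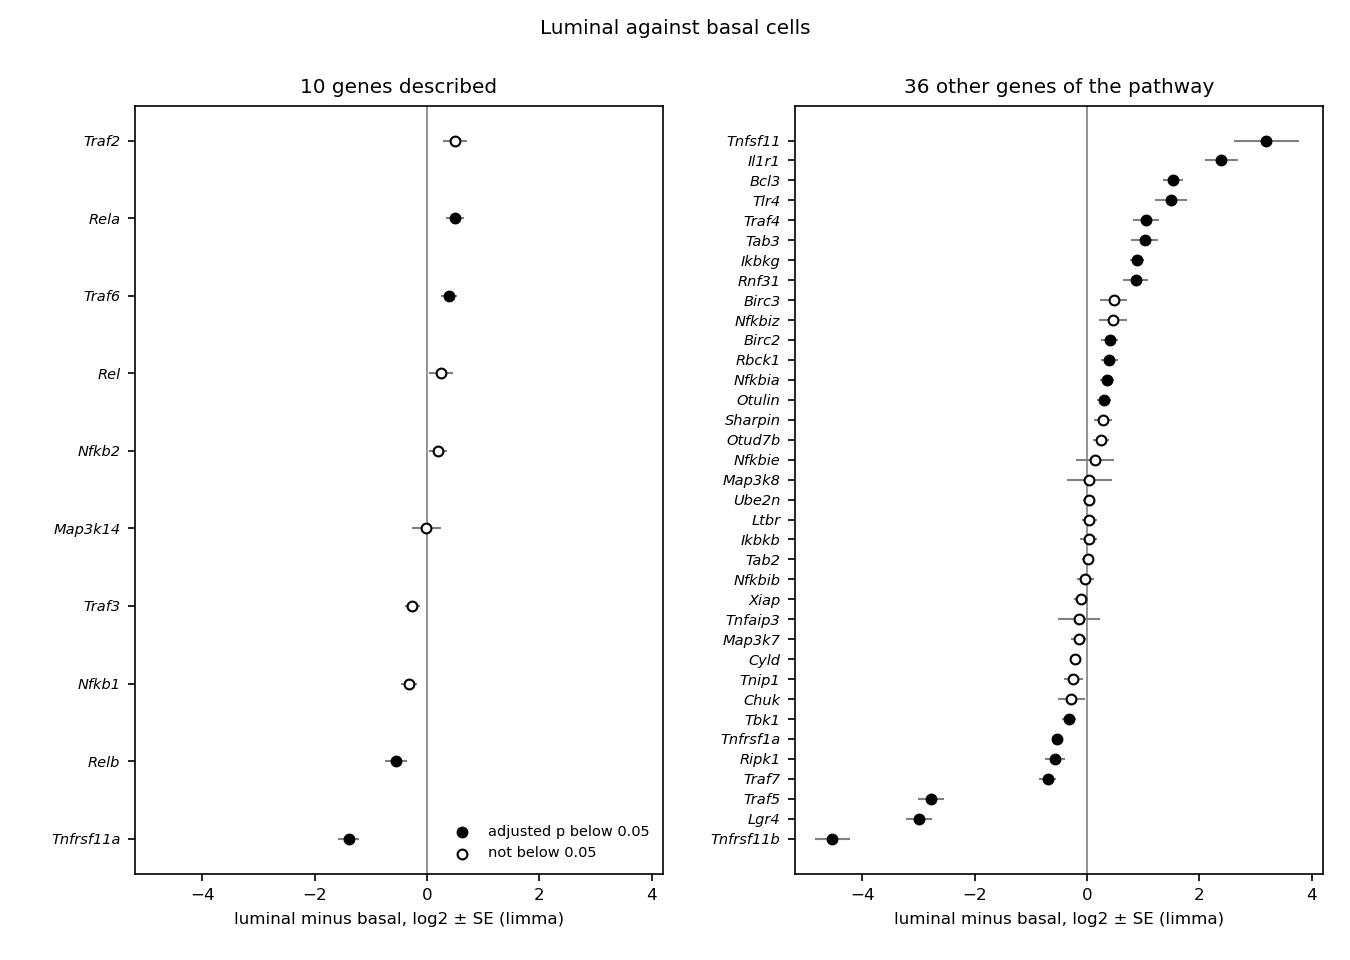
Luminal minus basal difference (log2 of normalized count + 1, limma, ± SE) of the 10 genes on the left and of 36 other genes of the pathway on the right, with filled points for adjusted p below 0.05. Tnfrsf11a lies lowest among the 10 at -1.39, while Tnfsf11 at 3.19 and Tnfrsf11b at -4.54 end the range on the right.

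Markers of other cells were also unequal between the lineages. The 5 endothelial markers, all in the table, summed to 5.29 to 119.96 normalized counts in luminal and 52.3 to 892 in basal libraries, and the 5 fibroblast markers to 84.3 to 949 and 472 to 837. The adipocyte gene Fabp4, 1 of 4 listed, had 4.40 to 50.5 in luminal and 111 to 2587 in basal libraries, and the immune genes Cd74 and Lyz2, 2 of 10 listed, summed to 3.20 to 28.8 and 35.3 to 99.1. Cd74, Cdh5, Cldn5, Eng and Lum were at 0 in the luminal library where each was lowest. The part of such cells in the lineage differences was not tested.

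The ligand and its decoy receptor lay apart between the lineages as well. Of the 36 pathway genes in the table, 12 were higher and 7 lower in luminal cells, beside 28.7% and 27% of all genes tested. Tnfsf11, which encodes Rankl, had 0 to 148 normalized counts in luminal and 0 to 3.10 in basal libraries, a log2 difference of 3.19 (SE 0.58, limma adjusted p = 2.68e-05). Tnfrsf11b, which encodes osteoprotegerin, the decoy receptor of Rankl, had 0 to 3.20 in luminal and 11.5 to 81.9 in basal libraries, without overlap, and a difference of -4.54 (SE 0.31, limma adjusted p = 2.85e-13). Ligand transcript thus lay with the luminal libraries, and transcripts of the receptor and of the decoy receptor with the basal ones. Lgr4, a further receptor that binds Rankl, was lower in luminal cells (-2.99, SE 0.23, limma adjusted p = 2.39e-12), as was the adaptor Traf5 (-2.78, SE 0.22, limma adjusted p = 8.78e-12), whose ranges did not overlap. Traf7 was lower too (-0.70, SE 0.15, limma adjusted p = 0.000154). The interleukin-1 receptor Il1r1, the kinase scaffold Ikbkg, the nuclear IkB protein Bcl3 and the receptor Tlr4, which signals through Traf6, were higher in luminal cells by 2.39, 0.89, 1.53 and 1.49 on the log2 scale, with limma adjusted p-values of 3.84e-08, 5.73e-07, 9.69e-09 and 5.65e-05. Tnfrsf1a, the TNF receptor, was lower (-0.54, SE 0.087, limma adjusted p = 4.1e-06), with no overlap.

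Rela and Nfkb2 followed the Clec2d division in every library. Rela had 94.9 to 207 normalized counts in the 16 Clec2d-low and 27.2 to 89.9 in the 14 Clec2d-high libraries. Nfkb2 had 69.2 to 164 in the former and 32.6 to 65.7 in the latter. The other 8 genes overlapped between the sides. A gap of this kind without overlap was seen in 2.2% of the 11137 genes, and in 0.835% with the Clec2d-low side higher, which is where both genes fell. Because every library followed the division, the 2 mixed groups had to follow it as well. Their values are given as a description and not as a further test. In parous K8imTmG luminal cells Rela was 141, 148 and 162 in the 3 Clec2d-low libraries (mice 532, 534 and 558) and 57.1 and 79.9 in the Clec2d-high ones (mice 494 and 557). Nfkb2 was 137, 144 and 103 against 48.7 and 47.9 in the same libraries. In parous K8iΔRank basal cells the 2 Clec2d-low libraries (mice 787 and 798) held 140 and 117 of Rela and 164 and 78.3 of Nfkb2, and the 2 Clec2d-high ones (mice 794 and 830) 87.7 and 88.5 of Rela and 60.6 and 65.7 of Nfkb2. The libraries were divided by Clec2d and not by Rela or Nfkb2. Clec2d was itself chosen with values of these libraries in view, so that the division is not independent of the data. Over the 30 libraries the log2 values of Rela and Nfkb2 had a Pearson r of 0.79, the highest of the pairs among the 10 genes, in libraries that share these sides, lineages and depths. Tnfrsf11a overlapped between the sides over all libraries, with 9.57 to 81.1 in Clec2d-low and 11.5 to 78.1 in Clec2d-high libraries. Within parous K8imTmG luminal cells it did not, with 49.3 to 64.9 in Clec2d-low libraries. The Clec2d-high ones there held 12.8 and 20.2, from 4 and 12 reads. The Clec2d-low minus Clec2d-high difference was 1.70 on the log2 scale in these cells and 0.08 in parous K8iΔRank basal cells.

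**Figure D3:**
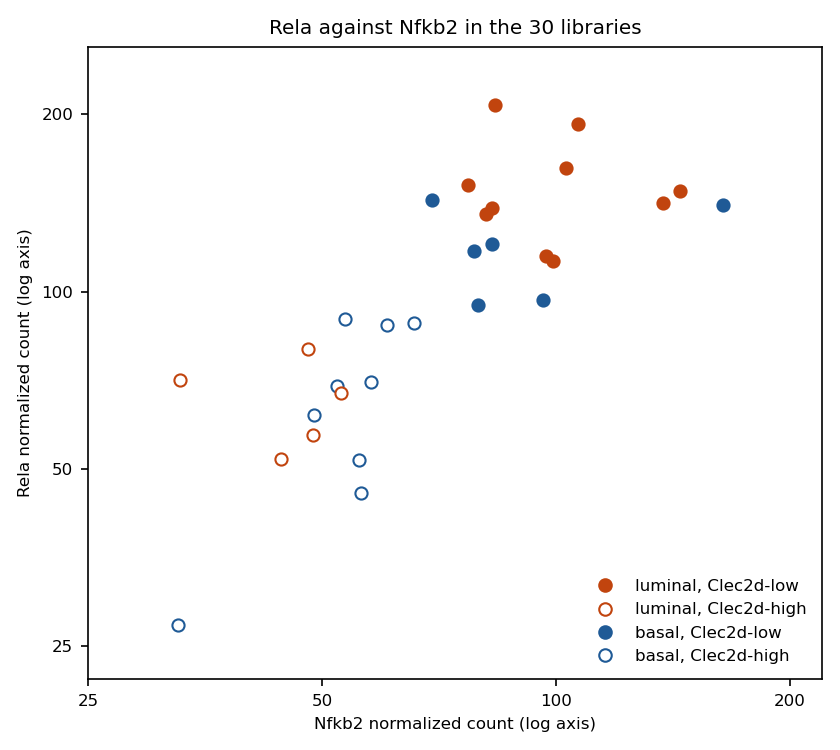
Normalized counts of Nfkb2 (horizontal, log axis) and Rela (vertical, log axis) in the 30 libraries, coloured by lineage, filled for Clec2d-low and open for Clec2d-high. The 16 filled points start at 94.9 of Rela and 69.2 of Nfkb2, and the 14 open points end at 89.9 and 65.7.

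K8iΔRank and K8imTmG mice were compared within each lineage and stage. In limma fits of the groups compared alone, none of the 10 genes passed an adjusted p below 0.05 in virgin luminal, parous luminal, virgin basal or parous basal cells, where 0.984%, 0.0991%, 8.99% and 0.906% of the genes tested did. At an unadjusted p below 0.05, 4, 3, 3 and 3 of the 10 passed, against 22.1%, 19.9%, 29.3% and 22.6% of all genes. DESeq2 gave an adjusted p below 0.05 to 1 member in virgin luminal cells, where 6.44% of genes passed, to 2 in parous luminal cells, where 6.06% did, and to 0 in basal cells, and edgeR to 0 in all 4. In parous basal cells Traf2 had no adjusted p in DESeq2. The values below are therefore a description of how the groups lay.

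**Figure D4:**
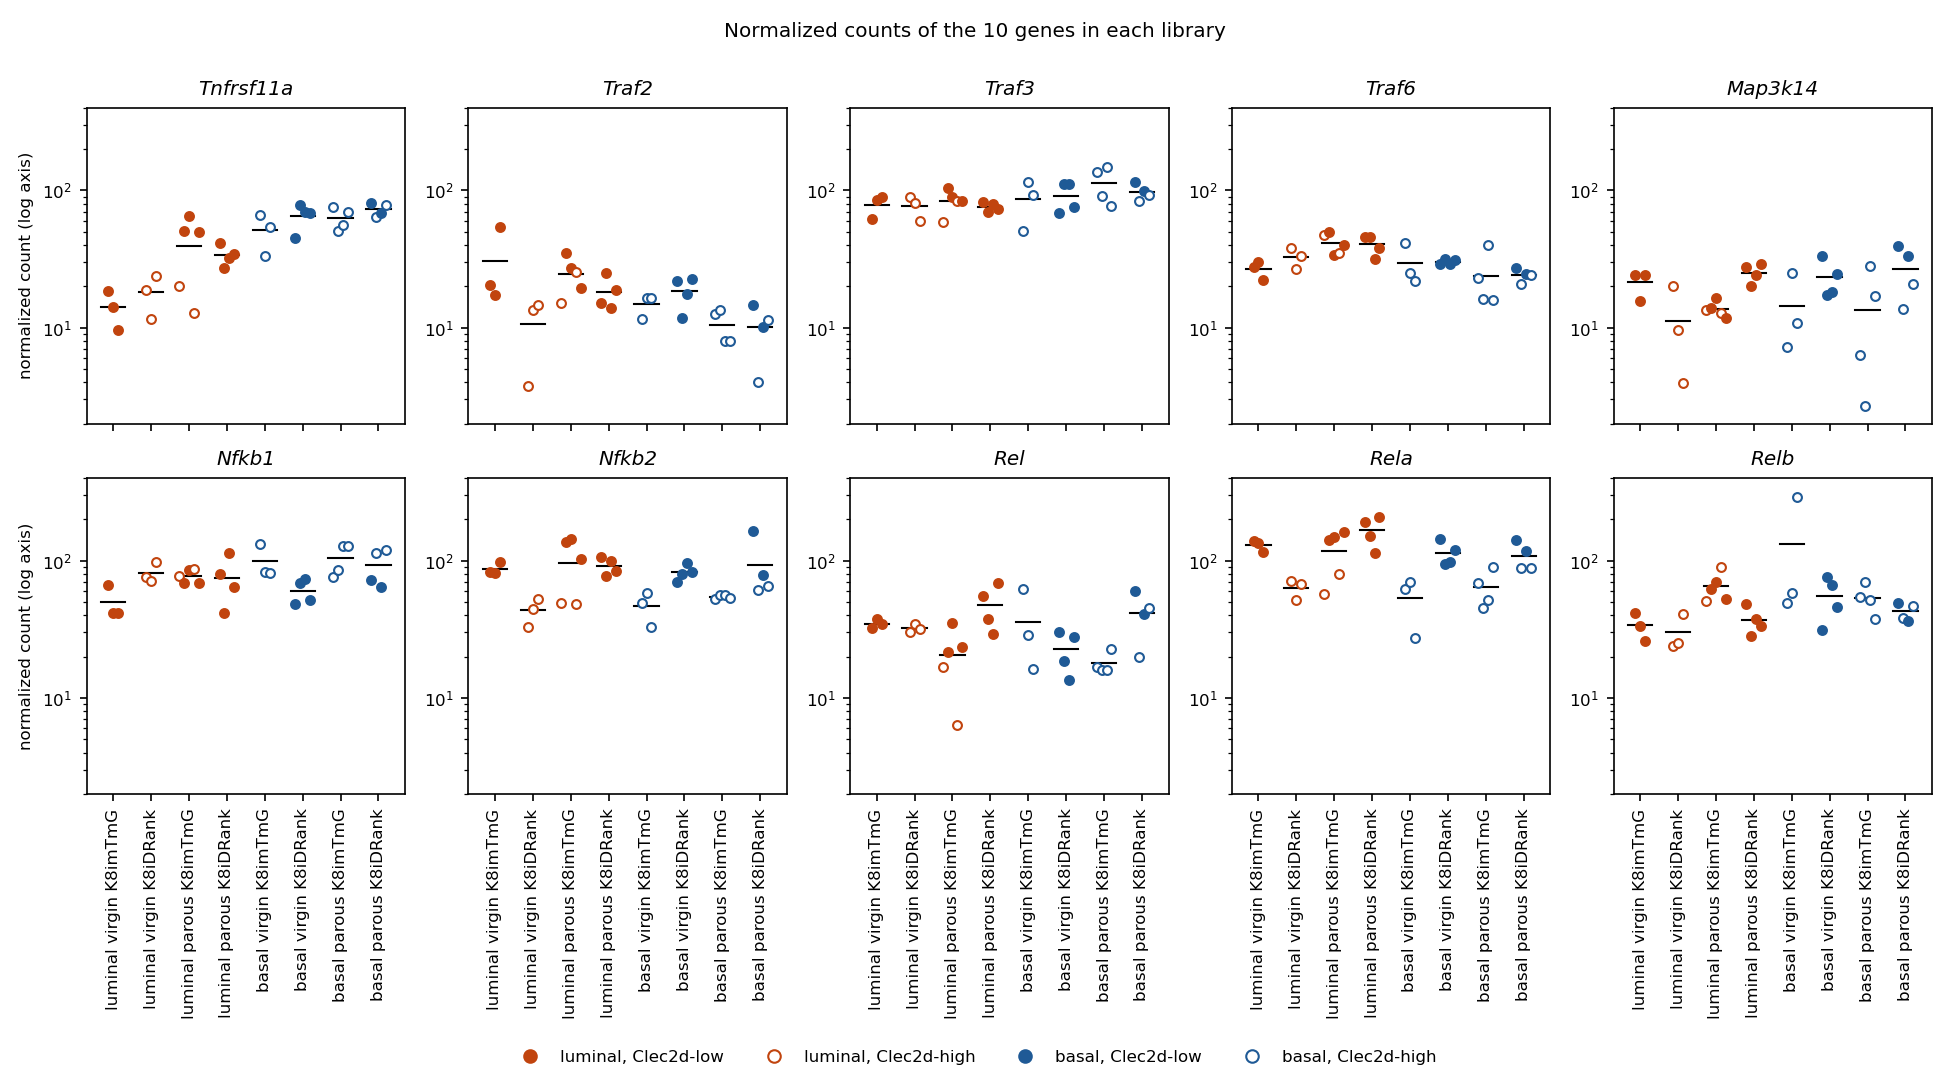
Normalized count (log axis) of each of the 10 genes in every library, by lineage, stage and genotype, with black lines for group means, filled points for Clec2d-low and open points for Clec2d-high libraries. Tnfrsf11a is highest in the basal groups, and in the panels of Nfkb2 and Rela the open points lie below the filled ones.

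In virgin luminal cells, K8imTmG libraries held 138, 135 and 115 normalized counts of Rela and K8iΔRank libraries 70.7, 51.9 and 67.4. All K8iΔRank values lay below all K8imTmG values, with a log2 difference of -1.03 (SE 0.25, limma adjusted p = 0.069). Rela was the member that DESeq2 called there (-0.99, adjusted p = 0.0422). Nfkb2 was 82.7, 81.3 and 97.1 in K8imTmG and 32.8, 44.2 and 52.8 in K8iΔRank libraries, a difference of -1.01 (SE 0.27, limma adjusted p = 0.0814). Traf2 was also lower without overlap and Nfkb1 higher without overlap, at -1.45 (SE 0.58) and 0.72 (SE 0.29), with limma adjusted p of 0.182 and 0.184. Of the 10 genes 4 did not overlap between genotypes, against 28.3% of the genes tested. Here all K8imTmG libraries were Clec2d-low and all K8iΔRank libraries Clec2d-high. The summed endothelial markers moved as well, from 70.5 to 119.96 in K8imTmG and from 31.7 to 50.5 in K8iΔRank libraries, as did the summed basal markers, from 57.7 to 69.9 and from 78.8 to 236, both without overlap. The part of such cells was not tested.

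In virgin basal cells the directions were opposite, as were the Clec2d sides. Rela was 61.8, 70.3 and 27.2 in K8imTmG and 143, 94.9, 96.8 and 120.3 in K8iΔRank libraries, without overlap, with a difference of 1.17 (SE 0.34, limma adjusted p = 0.0589), which passed with all basal libraries in 1 fit (limma adjusted p = 0.0225). Nfkb2 was 48.8, 57.9 and 32.6 against 69.2, 79.4, 96.2 and 82.7, again without overlap, at 0.83 (SE 0.27, limma adjusted p = 0.0782). Nfkb1 was lower without overlap, at -0.69 (SE 0.28, limma adjusted p = 0.135). These 3 of 10 compare with 28.2% of all genes tested. Relb had a mean difference of -0.84 (SE 0.58, limma adjusted p = 0.355), which was -0.03 (SE 0.39) without mouse 568. Endothelial markers summed to 174 to 432 in K8imTmG and 227 to 892 in K8iΔRank libraries, and luminal progenitor markers to 32.6 to 43.1 and 19.8 to 29.0, the latter without overlap. Their part was not tested.

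In parous luminal cells the genes that lay apart were others. Map3k14 was 13.4, 14.0, 16.3, 12.8 and 11.7 in the 5 K8imTmG and 27.4, 20.1, 24.0 and 28.8 in the 4 K8iΔRank libraries. All K8iΔRank libraries lay above all K8imTmG libraries, at 0.83 (SE 0.22, limma adjusted p = 0.108). Relb was 50.4, 62.4, 70.2, 89.5 and 52.8 in K8imTmG and 47.9, 28.0, 37.3 and 33.3 in K8iΔRank libraries, all lower, at -0.81 (SE 0.22, limma adjusted p = 0.115). The 2 of 10 genes without overlap compare with 9.73% of all genes. Both had an adjusted p below 0.05 in DESeq2, at 0.0462 for Map3k14 and 0.0324 for Relb, and not in edgeR, at 0.116 and 0.120. The Clec2d-low libraries alone, 3 K8imTmG and 4 K8iΔRank, gave 0.80 (SE 0.22) for Map3k14 and -0.75 (SE 0.21) for Relb, both with a limma adjusted p of 0.083. Rel, whose protein c-Rel is best known from lymphocytes, overlapped, with 6.39 to 35.3 in K8imTmG and 29.0 to 68.5 in K8iΔRank libraries and a difference of 1.26 (SE 0.43, limma adjusted p = 0.157), and 0.77 (SE 0.31, limma adjusted p = 0.154) among Clec2d-low libraries. Tnfrsf11a, whose 3′ reads do not cover exons 2 and 3, gave -0.01 (SE 0.43, limma adjusted p = 0.992) over all libraries and -0.69 (SE 0.20, limma adjusted p = 0.0851) among the Clec2d-low ones. In the latter, K8imTmG libraries held 49.3 to 64.9 and K8iΔRank libraries 27.02 to 41.1, without overlap. Rela and Nfkb2 differed by 0.56 (SE 0.32) and 0.07 (SE 0.35) over all libraries and by 0.10 (SE 0.21) and -0.48 (SE 0.18) among the Clec2d-low ones. Endothelial markers summed to 5.29 to 19.2 in K8imTmG and 17.1 to 67.3 in K8iΔRank libraries, and their part was not tested.

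In parous basal cells Rel was 16.7, 16.0, 15.9 and 22.8 in K8imTmG and 60.5, 19.9, 40.5 and 45.0 in K8iΔRank libraries. The former rested on 4 to 20 reads and the latter on 25 to 141. Only mouse 794 among the K8iΔRank libraries fell within the K8imTmG range. The difference was 1.08 (SE 0.33, limma adjusted p = 0.0989), and 1.39 (limma adjusted p = 0.0158) without mouse 794. Among Clec2d-high libraries it was 0.73 (SE 0.42, limma adjusted p = 0.678), with 2 K8iΔRank libraries left. Nfkb2 was the only one of the 10 genes without overlap, where 12% of all genes had none, with 52.3 to 56.2 in K8imTmG and 60.6 to 164 in K8iΔRank libraries (0.63, SE 0.29, limma adjusted p = 0.22) and 0.21 (SE 0.24) among Clec2d-high libraries. Rela gave 0.77 (SE 0.26, limma adjusted p = 0.117). Tnfrsf11a gave 0.22 (SE 0.21, limma adjusted p = 0.546), Traf3 -0.17 (SE 0.24, limma adjusted p = 0.688) and Traf6 0.12 (SE 0.32, limma adjusted p = 0.852), and these 3 genes overlapped between genotypes in all 4 comparisons. The 5 luminal markers summed to 721 to 1086 in K8imTmG and 1256 to 1364 in K8iΔRank parous basal libraries, and the 8 basal markers to 10154 to 11355 and 8196 to 8988, both without overlap, and the part of such cells was not tested.

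Of the other genes of the pathway, 3 of 34 tested passed between genotypes in virgin basal cells, beside 8.99% of all genes. In each of the other 3 comparisons 0 of 34 passed, beside at most 0.984% of all genes. Nfkbia, which encodes IkB-alpha, the inhibitor that NF-kB itself induces, was lower in K8iΔRank, with means of 3353 ± 356 (SD, n = 3) and 1718 ± 223 (SD, n = 4) and a difference of -0.97 (SE 0.21, limma adjusted p = 0.0233). The kinase Tbk1 was lower at -1.06 (SE 0.25, limma adjusted p = 0.0308), and Rbck1, a subunit of the linear ubiquitin ligase, was higher at 1.20 (SE 0.30, limma adjusted p = 0.0363). All 3 separated the genotypes without overlap, and passed in 4, 1 and 2 of the 7 fits that left out 1 mouse. These libraries too were divided by Clec2d in the same way as by genotype. Nfkbia was also lower without overlap in parous basal cells, with 2759 to 4134 in K8imTmG and 1275 to 2456 in K8iΔRank libraries. The same held in parous luminal cells, with 3715 to 6976 and 1626 to 2872. It passed in neither, and 12% and 9.73% of all genes had no overlap there. In virgin luminal cells Nfkbia overlapped, with 1800 to 2961 and 2810 to 3880. Tnfsf11 overlapped between genotypes in luminal cells, with 0 to 30.9 and 10.6 to 148 in virgin and 0 to 19.99 and 0 to 78.8 in parous K8imTmG and K8iΔRank libraries. Tnfrsf11b gave 0.07 (SE 0.63) in virgin and -0.05 (SE 0.40) in parous basal cells, with limma adjusted p-values of 0.955 and 0.952.

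Parous and virgin mice were compared within each lineage and genotype, to ask what a past pregnancy leaves in these genes. In K8imTmG luminal cells none of the 10 passed in the limma fit of these groups alone, where 2.2% of the genes tested did. Tnfrsf11a had 9.57 to 18.6 in the 3 virgin libraries. In the parous ones the 3 Clec2d-low libraries held 49.3 to 64.9, above all virgin values, while the 2 Clec2d-high libraries held 12.8 and 20.2, from 4 and 12 reads. The difference was 1.24 (SE 0.52, limma adjusted p = 0.203) over all libraries. Among Clec2d-low libraries, 3 parous and 3 virgin, Tnfrsf11a was higher in parous cells, at 1.92 (SE 0.29, limma adjusted p = 0.0147), in a comparison where 1285 of 10014 genes passed. Relb was higher in all 5 parous libraries, with 50.4 to 89.5 against 25.8 to 41.7, at 0.93 (SE 0.26, limma adjusted p = 0.0927), and passed with all luminal libraries in 1 fit (limma adjusted p = 0.0427). DESeq2 called Relb (adjusted p = 0.0275) and Tnfrsf11a (adjusted p = 0.0277), 2 of the 10 beside 10.3% of all genes. Traf6 and Nfkb1 were also without overlap, at 0.61 (SE 0.24, limma adjusted p = 0.186) and 0.65 (SE 0.23, limma adjusted p = 0.149). The 3 of 10 genes without overlap compare with 16.9% of all genes. Markers of luminal subtypes moved too. The 5 hormone-sensing markers summed to 7666 to 9669 in virgin and 554 to 6198 in parous K8imTmG libraries and the 4 luminal progenitor markers to 424 to 637 and 832 to 1103. The 5 general luminal markers summed to 7634 to 11012.5 in virgin and 4039 to 6503 in parous libraries and the endothelial markers to 70.5 to 119.96 and 5.29 to 19.2. All 4 sets were without overlap, and the part of these cells was not tested.

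Relb has 2 matches and Traf3 has 1 to the consensus binding motif of NF-kB between 250 bases before and 50 after the transcript start, searched on both strands of GRCm39 with GENCODE vM39 starts. The other 8 genes have no match in that window, and 8.97% of 21770 promoters have at least 1. The matches are shown with flanks in lower case and the motif in capitals, and are a description of sequence and not of binding.
Relb, chr7:19363441-19363470, minus strand, motif starting 37 bases before the transcript start: gtgagcagcgGGGGTTTTCCcattcccttt
Relb, chr7:19363374-19363397, minus strand, motif starting 36 bases after it: cggcggcgccGGGGAATTCCgccg
Traf3, chr12:111132784-111132813, plus strand, motif starting 18 bases after the transcript start: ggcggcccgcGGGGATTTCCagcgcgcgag
Between parous and virgin K8imTmG luminal cells Traf3 gave 0.08 (SE 0.24, limma adjusted p = 0.864), beside the 0.93 of Relb.

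In K8iΔRank luminal cells Rela and Nfkb2 were higher in parous than in virgin mice. Of the 10 genes these 2 passed, beside 16% of all genes tested, 8.25% of them higher in parous cells. Rela was 70.7, 51.9 and 67.4 in the 3 virgin and 192, 152, 113 and 207 in the 4 parous libraries, without overlap, at 1.35 (SE 0.24, limma adjusted p = 0.00644). Nfkb2 was 32.8, 44.2 and 52.8 in virgin and 106.9, 77.1, 99.2 and 83.4 in parous libraries, without overlap, at 1.08 (SE 0.23, limma adjusted p = 0.0124). Both passed in edgeR (adjusted p = 0.00865 and 0.0168), in DESeq2 (adjusted p = 0.000115 and 0.0036) and in all 7 fits that left out 1 mouse. The virgin libraries were all Clec2d-high and the parous ones all Clec2d-low, so that stage and side cannot be told apart, and both genes followed the sides in every library. With all luminal libraries in 1 fit the limma adjusted p of Nfkb2 was 0.09. Tnfrsf11a was 18.9, 11.5 and 23.8 in virgin and 41.1, 27.02, 32.3 and 34.3 in parous libraries, higher in every parous library, at 0.90 (SE 0.30, limma adjusted p = 0.0592). Without mouse 825 its limma adjusted p was 0.043. The 3 of 10 genes without overlap compare with 29.7% of all genes. Map3k14 gave 1.32 (SE 0.44, limma adjusted p = 0.0629), and 1.83 (limma adjusted p = 0.0282) without mouse 821. Fibroblast markers summed to 671 to 843 in virgin and 163 to 394 in parous libraries and basal markers to 78.8 to 236 and 40.8 to 72.3, both without overlap, and the part of such cells was not tested. Of 34 other pathway genes, Nfkbie, which encodes IkB-epsilon, was higher in parous cells at 1.30 (SE 0.32, limma adjusted p = 0.0226), as was the lymphotoxin receptor Ltbr, an activator of the noncanonical arm, at 0.71 (SE 0.21, limma adjusted p = 0.0401). They passed in 4 and 1 of the 7 fits that left out 1 mouse, and 0 pathway genes passed with all luminal libraries in 1 fit.

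**Figure D5:**
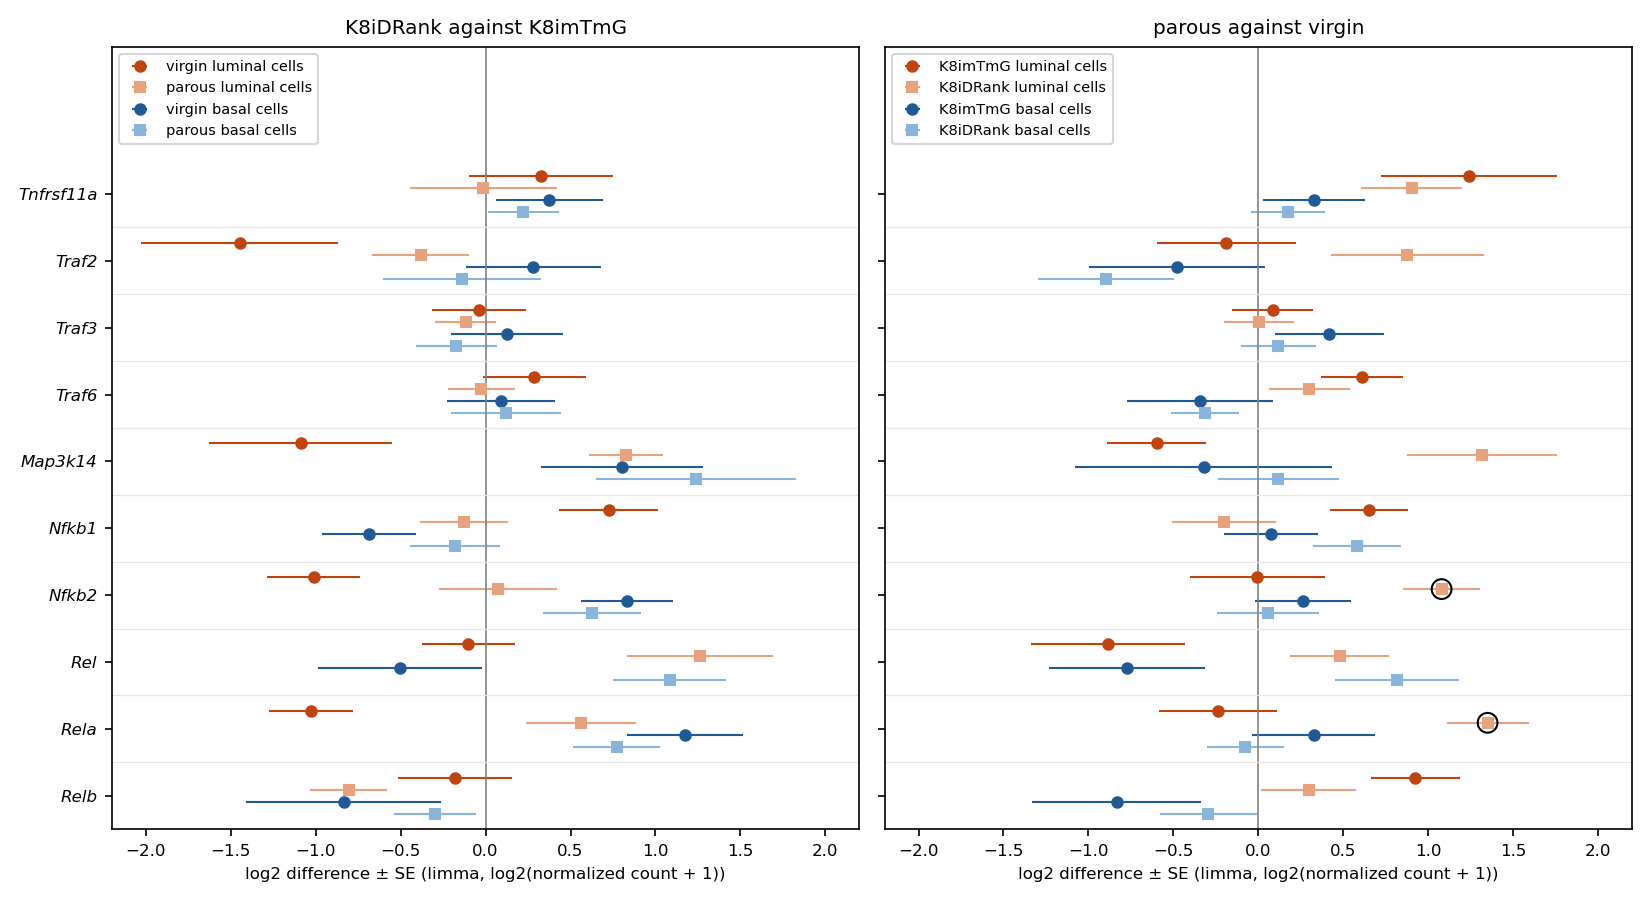
Log2 differences (limma on log2 of normalized count + 1, ± SE) of the 10 genes for K8iΔRank against K8imTmG on the left and parous against virgin on the right, by lineage and stage or genotype, with circles around those with adjusted p below 0.05. The circles mark Nfkb2 at 1.08 and Rela at 1.35 in K8iΔRank luminal cells and no other point.

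In basal cells none of the 10 genes differed between parous and virgin mice in limma, where 0% of all genes passed in either genotype. At an unadjusted p below 0.05, 0 of the 10 in K8imTmG and 3 in K8iΔRank basal cells passed, against 9.2% and 9.84% of all genes. Over all genes edgeR called 8 and 0 and DESeq2 44 and 91. Tnfrsf11a gave 0.33 (SE 0.30, limma adjusted p = 0.741) in K8imTmG and 0.18 (SE 0.22, limma adjusted p = 0.735) in K8iΔRank cells. Rel gave -0.77 (SE 0.46) in the former and 0.82 (SE 0.37) in the latter, with limma adjusted p-values of 0.612 and 0.497. Relb gave -0.83 (SE 0.50) in K8imTmG basal cells, and -0.03 (SE 0.32) without mouse 568. Traf6 was the only one of the 10 genes without overlap, lower in parous K8iΔRank cells at -0.31 (SE 0.20, limma adjusted p = 0.55), where 6.1% of all genes had no overlap. In K8imTmG basal cells 0 of the 10 genes and 9.35% of all genes had none. Endothelial markers summed to 174 to 432 in virgin and 52.3 to 118 in parous K8imTmG libraries. In K8iΔRank libraries they summed to 227 to 892 and 91.8 to 143. Hormone-sensing markers summed to 152 to 434 and 58.6 to 144 in K8imTmG libraries. Basal markers summed to 9015 to 12886 and 8196 to 8988 in K8iΔRank libraries. These ranges did not overlap between stages, and the part of such cells was not tested.

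Whether the genotype difference itself changed with parity was tested as an interaction in each lineage. In luminal cells 2 of the 10 genes passed, both positive, against 12.9% of all genes tested and 7.17% with a positive value. Map3k14 had a difference of differences of 1.92 (SE 0.53, limma adjusted p = 0.0328), with -1.09 (SE 0.54) between genotypes in virgin and 0.83 (SE 0.22) in parous cells. The virgin groups overlapped (limma adjusted p = 0.266), and the virgin K8iΔRank values came from 16, 5 and 3 reads. Among the parous K8imTmG libraries, those of mice 494 and 557 had 8 and 4 reads. Rela gave 1.59 (SE 0.45, limma adjusted p = 0.0339), with -1.03 in virgin and 0.56 in parous cells. Both also passed in edgeR (adjusted p = 0.0414 and 0.0418) and DESeq2 (adjusted p = 0.016 and 0.0175). The interaction of Map3k14 was 1.82 without mouse 531, 1.82 without 538, 1.38 without 825, 1.87 without 787, 2.01 without 794 and 1.85 without 830, and did not pass without any one of these 6 mice, with limma adjusted p from 0.0511 to 0.0859. That of Rela did not pass without mouse 533 (1.55), 538 (1.67), 821 (1.67), 822 (1.45), 825 (1.64), 557 (1.48), 787 (1.51), 794 (1.62) or 830 (1.47), with limma adjusted p from 0.0504 to 0.0689. The direction was the same in all 15 fits for both genes. Their virgin groups stood on opposite Clec2d sides. For Map3k14, unlike Rela, the sides overlapped, with 11.7 to 39.0 in Clec2d-low and 2.67 to 27.9 in Clec2d-high libraries, and the Clec2d-low minus Clec2d-high difference within a group was 0.08 on the log2 scale in parous K8imTmG luminal cells and 1.06 in parous K8iΔRank basal cells.

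Of 34 other pathway genes tested for this interaction, 2 passed in each direction, where 12.9% of all genes tested passed in either direction. Nfkbia gave -1.59 (SE 0.40, limma adjusted p = 0.0234), with means of 2438 ± 589 (SD, n = 3) and 3236 ± 568 (SD, n = 3) in virgin and 4829 ± 1285 (SD, n = 5) and 2159 ± 576 (SD, n = 4) in parous K8imTmG and K8iΔRank cells. It passed in 12 of the 15 fits that left out 1 mouse. Lgr4 gave -2.18 (SE 0.65, limma adjusted p = 0.0406), Il1r1 1.30 (SE 0.39, limma adjusted p = 0.0401) and Ltbr 1.06 (SE 0.33, limma adjusted p = 0.0443), and these passed in 6, 7 and 4 of the 15 fits. In basal cells none of the 10 genes passed the interaction in limma, where 0% of all genes did and 10.2% had an unadjusted p below 0.05. Rel alone among the 10 was under that limit, at 1.59 (SE 0.59, limma adjusted p = 0.416). edgeR called 0 and DESeq2 18 of all genes there, none of them among the 10. DESeq2 gave no adjusted p to Traf2, Traf6, Map3k14 and Rel, so that these could not be called by it. Rel was 2.05 in edgeR (unadjusted p = 0.00275, adjusted p = 0.310) and 2.02 in DESeq2 (unadjusted p = 0.00263).

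The genes most like Tnfrsf11a over the 30 libraries, by Pearson r of log2 values, were Cadm1 (0.92), 1700025G04Rik (0.92), Slc20a1 (0.90), Pdlim3 (0.90) and Nhsl1 (0.90). Those most like Rela were Prkcsh (0.88), Ifnar2 (0.88) and Rps6kb1 (0.87). The highest values for Traf6 were 0.75 with Lbp and 0.75 with Plaa, and that for Relb was 0.72 with Ctps. The libraries share lineage, Clec2d side and depth, so that these values describe patterns over the groups. None of the other 9 members was among the 5 genes most like Tnfrsf11a, and its highest r with a member was 0.39, with Nfkb1. Clasrp lies on the same strand within 1000 bases of the 3′ end of Relb, and Psd and Gm34823 lie on the opposite strand at those of Nfkb2 and Map3k14. The protocol gives reads in the sense orientation, and the strand setting used in counting is not given in the sources used here.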

How the data were processed

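Luminal and basal cells from single mice were profiled by QuantSeq 3′ mRNA sequencing with UMIs. Per the methods and labels, the authors trimmed reads, mapped them with Bowtie2 on GRCm39, collapsed those sharing a UMI with UMI-tools and counted against GENCODE vM26, and FastQC 0.11.9 is named among the tools. The deposited signal values are gene counts divided by DESeq2 size factors. The lowest nonzero value of a library was taken as 1 read, and 100% of values were whole multiples of it within 1e-06.

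Groups came from the labels. The test was limma 3.58.1 with a trend, applied to values as log2(normalized count + 1), among genes above 10 in at least 25% of the libraries compared, 2 groups per fit (8 for the lineage and 4 for the interaction), with Benjamini-Hochberg adjustment over all genes tested. Fold changes of low genes are understated on this scale. Libraries of the same mouse pair the lineages. Their deviations from the group means correlated from -0.24 to 0.34 over 13 mice. Replicates of a group were checked for repeated libraries, and their reads differed by a chi-square of at least 2.72 per degree of freedom in 43 pairs.

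Alternatives were pseudocounts of 0.5 and 4, no filter, edgeR 4.0.16 and DESeq2 1.42.0 on recovered reads, all libraries of a lineage in 1 fit, 1 Clec2d side alone, the Clec2d side as a term, the mouse as a block and each mouse left out. Counts are precise to the reads behind them, and 3 reads correspond to 1.14 to 16.3 normalized counts. On simulated counts with 200 genes changed by 2 on the log2 scale, limma recovered 39% (interaction, basal cells, 10911 genes) to 99.5% (lineages, 10896 genes) of them. The changed genes were drawn above a cut on the overall mean that Traf2 and Map3k14 fall below, and no Clec2d division was simulated. Recovery of smaller changes was not simulated.

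The members, the 42 pathway genes (36 in the table) and the markers were chosen with earlier results of these data known. Named genes are all members, Tnfsf11 and Tnfrsf11b, and per comparison up to 4 pathway genes per direction (5 between lineages) with the lowest adjusted p below 0.05. Further genes, Clec2d among them, were chosen for mention with values in view. Gene positions and promoters are those of GENCODE vM39 on GRCm39. Genes of these lists that the table lacks are not analysed here. R 4.3.3 was used.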

Additional observations from a re-analysis of the deposited data

Results flagged for a closer look

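Rel in parous K8imTmG basal cells had 1 library apart from the other 3. Mouse 558 held 22.8 normalized counts of Rel and the nearest of the others 16.7. The value of mouse 558 came from 20 reads and those of mice 532, 534 and 557 from 8, 6 and 4. Of 50 sets of a gene and a group of 4 or 5 libraries this was the only one so far apart. Chance sets about 1 in 20 apart, so that 1 in 50 is not more than chance gives.

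The genotype difference in luminal cells changed between virgin and parous mice for Map3k14, by 1.92 on the log2 scale (limma adjusted p = 0.0328), and for Rela, by 1.59 (limma adjusted p = 0.0339). The virgin K8iΔRank values of Map3k14 came from 3 to 16 reads.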

How the results depend on the processing

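Of 110 differences of the 10 genes in 11 comparisons, none that passed changed sign under any alternative run. Between lineages, 4 of the 10 genes passed in the main fit and 7 with edgeR. DESeq2 called 1 gene in the virgin and 2 in the parous luminal genotype comparison, and 2 in parous against virgin K8imTmG luminal cells, where none passed in limma. With all libraries of a lineage in 1 fit, 1 gene passed between virgin basal genotypes (Rela, 1.17, limma adjusted p = 0.0225), 1 between stages in K8imTmG luminal cells (Relb, limma adjusted p = 0.0427) and 1 in place of 2 in K8iΔRank luminal cells. The Clec2d-low libraries alone gave 1 in K8imTmG luminal cells. With 1 mouse left out at a time, limma called 4 to 6 genes between lineages, 0 to 1 between parous basal genotypes, 2 to 3 between stages in K8iΔRank luminal cells and 0 to 2 for the luminal interaction, and 0 in the other comparisons. With the mouse as replicate block 4 genes passed between lineages, Traf2 in place of Traf6.

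Over all genes, counts of calls moved by over 1.5 times. In virgin luminal cells 99 genes differed between genotypes, 5 without a filter and 648 with DESeq2. In parous luminal cells 10 did, 20 with edgeR, 611 with DESeq2 and 42 in 1 fit or with Clec2d-low libraries. In virgin basal cells 954 did and 1803 in 1 fit. In parous basal cells 96 did, 186 with a pseudocount of 4, 11 without a filter, 645 with DESeq2, 170 in 1 fit and 0 among Clec2d-high libraries. Between stages in K8imTmG luminal cells 226 did, 106 without a filter, 1060 with DESeq2, 789 in 1 fit and 1285 among Clec2d-low libraries, and in K8iΔRank luminal cells 1643 and 222 in 1 fit. In basal cells 0 did in either genotype, 2 with a pseudocount of 4, 8 with edgeR and 44 with DESeq2 in K8imTmG and 91 with DESeq2 in K8iΔRank mice. For the interaction, 1326 luminal and 0 basal genes passed, and 1990 and 18 with DESeq2. The cause of these moves was not tested. In the shallowest library 3 reads are 16.3 normalized counts, which limits Traf2, Map3k14 and Rel most.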
